A study of Zea mays with 12 samples.

Results

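The mRNAs described here are 96 maize genes whose RNA level was higher at both 6 and 12 hr of TM than at 0 hr, out of 17852 genes that were well enough represented to be ranked. They were chosen by their RNAseq values alone. Counts were scaled to the library total as CPM (counts per 1000000) after adding 0.5 to each, and genes whose identifier starts with Zm00001d and whose mean was at least 5 CPM over the 6 RNAseq libraries were kept. The score of a gene was its lowest CPM in the 4 libraries of 6 and 12 hr divided by its highest CPM in the 2 libraries of 0 hr, and the genes with the 100 highest scores were taken. Of these 100, 4 known genes of the unfolded protein response (UPR) were set aside: ERDJ3a (Zm00001d047726, score 5.29), BIP2 (Zm00001d014993, 3.34), PDI-2 (Zm00001d005866, 3.20) and Derlin 1 (Zm00001d010368, 2.77).

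The libraries came from roots of B73 seedlings, 7 days old by the labels, after 0, 6 or 12 hr in 5 µg/ml TM (tunicamycin) dissolved in DMSO. Biological duplicates were taken at every time, and an RNAseq and a ribo-seq library were made from each lysate, 6 of either kind. Ribo-seq counts ribosome-protected fragments (RPFs), the stretches of mRNA that lay inside a ribosome when the lysate was made. The methods of the study also mention mock-treated roots, which were not analysed here, so TM and time in culture cannot be told apart. Totals ranged over 2019128 to 9861654 counts in RNAseq and over 1667094 to 12328304 in ribo-seq.

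TM blocks the first step of N-glycosylation, so that secretory proteins fold poorly in the endoplasmic reticulum (ER). Plant cells answer with the UPR, in which a membrane-bound RNase splices the mRNA of a bZIP transcription factor and other bZIP factors are released from the ER membrane. These factors raise the mRNAs of chaperones such as BIP2, an ER Hsp70, of co-chaperones such as ERDJ3a, of disulfide isomerases such as PDI-2 and of ERAD proteins such as Derlin 1, which serve the removal of misfolded proteins. The amount of protein made from such an mRNA depends on how many ribosomes it carries as well as on how much of it there is, and the ratio of RPFs to RNA is the usual measure of translation efficiency. No table used here pairs the 96 identifiers with gene names, so their products, their promoters and the tissue's marker genes were not examined. They are described by their scores, with 4 identifiers printed.

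Most of these mRNAs also had more RPFs at 6 and 12 hr. Over all 96 genes, the median log2 ratio of RPF CPM was 1.09 for 6 against 0 hr and 1.20 for 12 against 0 hr, where the medians over the 17852 genes were -0.01 and -0.01. The ribo-seq libraries took no part in the choice of the genes, but they came from the same lysates as the RNAseq libraries that did. In whole roots, a change in the make-up of cell types and a change within cells cannot be told apart. The higher level was not seen in all genes. At 12 hr both libraries lay above both 0 hr libraries in all 21 genes with at least 50 RNA counts at 0 hr (14.8% of all ranked genes of that depth). The same held for 25 of the 54 genes with fewer than 20 (20.3% of such genes).

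The RNA values themselves are given as a description, since they chose the genes. The score had a median of 2.27 and ran from 1.79 to 64.9, with 14 genes above 3 and 6 above 4. Over all 17852 genes, 2259 had a score above 1, that is 4 later libraries above both 0 hr libraries. The last genes inside the list had scores of 1.80, 1.79 and 1.79 and the next ones outside 1.78, 1.78 and 1.77, so the limit falls in a dense stretch of the ranking. The median log2 ratio of RNA CPM was 1.54 for 6 against 0 hr and 1.75 for 12 against 0 hr, beside 0.04 and 0.02 over all 17852 genes. Between 12 and 6 hr the median was 0.09 (range -0.62 to 1.25): the level of these mRNAs at 12 hr was about that at 6 hr. The 2 libraries of 12 hr lay above both of 6 hr in 17 genes (17.7%) and below both in 6 (6.25%), where 14.6% and 19.2% of all 17852 genes did.

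Many of the genes rested on few RNA counts at 0 hr. In the 0 hr RNAseq library of replicate 1, the shallowest, 56 of the 96 genes had fewer than 10 counts, against 13 in that of replicate 2. Averaged over both 0 hr RNAseq libraries, 54 of the 96 genes had fewer than 20 counts, although only 1058 of the 17852 ranked genes did. The highest score belonged to a gene with 0 RNA counts in both 0 hr libraries, 158 and 81 at 6 hr, then 292 and 114 at 12 hr. Against a floor of 3 counts per library its lowest later level was at least 10.8-fold higher.

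**Figure D1:**
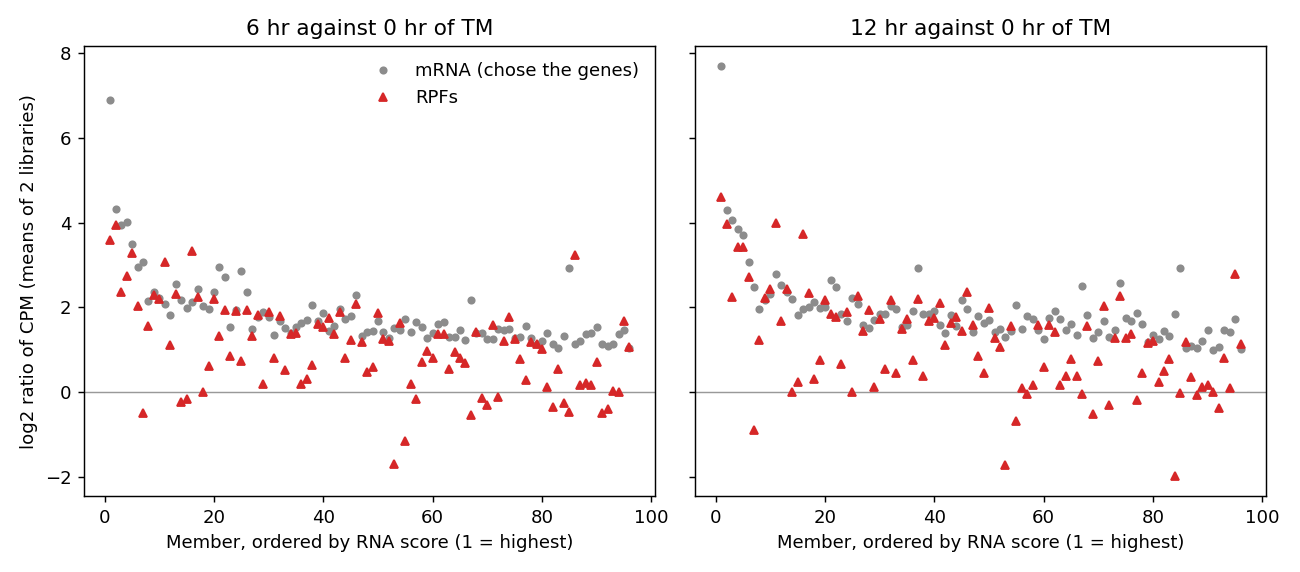
Log2 ratio of CPM (means of 2 libraries on the log2 scale) for each of the 96 genes, in order of score, for 6 against 0 hr (left) and 12 against 0 hr (right). Grey circles are mRNA, which chose the genes, and red triangles are RPFs; 81 of 96 triangles lie above 0 in each panel.

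RPFs were then compared between time points in every gene, with no filter on low counts and no scaling other than the library total. Both 6 hr libraries lay above both 0 hr libraries in 61 of the 96 genes (63.5%), where 14.5% of the 17852 genes did. At 12 hr it was 62 of 96 (64.6%), where the share of all genes was 15.6%. The time points were separated in this way at both 6 and 12 hr in 54 genes (56.2%, beside 6.67% of all genes), at 6 hr alone in 7, at 12 hr alone in 8 and at neither in 27. The same 0 hr libraries enter at both times, so these counts are not independent of each other. Both later libraries lay below both 0 hr libraries in 3 genes at 6 hr and 3 at 12 hr, where 15.6% and 15.4% of all genes did, and no gene was below at both. The log2 ratio exceeded 1 in 50 genes at 6 hr and 53 at 12 hr, beside 3.01% and 3.37% of all genes.

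RPFs lay close together at 6 and 12 hr. The median log2 ratio of RPF CPM for 12 against 6 hr was 0.11, beside 0.01 over all 17852 genes. The ratio exceeded 1 in 4 of the 96, beside 2.69% of all genes. The 12 hr libraries lay above both 6 hr libraries in 18 genes (18.8%) and below both in 6 (6.25%). The shares of all genes were 15.6% above and 14.5% below.

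The depth of 0 hr RNA moved with this separation. All 21 genes with a mean of at least 50 RNA counts at 0 hr had both 6 hr and both 12 hr RPF libraries above both 0 hr ones, where 13.5% and 14.8% of the 11958 ranked genes with that many counts did. Of the 21 genes with a mean of 20 or more but under 50, the RPFs were separated in 16 at 6 hr and 16 at 12 hr, beside 16.1% and 16.5% of ranked genes of that depth. Of the 54 genes under 20 they were separated in 24 at 6 hr and 25 at 12 hr, beside 19.0% and 20.3% of ranked genes with so few counts. In that last group the median log2 ratio at 12 against 0 hr was 1.83 in RNA and 0.38 in RPFs, while in the 21 best-counted genes it was 1.60 in RNA and 1.71 in RPFs. The part of counting error in this difference was not tested. RPF depth moved with it as well: of the 54 genes with a mean of at least 50 RPF counts, 43 were separated at 12 hr and 41 at 6 hr (15.0% and 13.8% of ranked genes of that depth), and of the 42 others 19 and 20 (17.2% and 16.5%).

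The number of genes with separated RPFs was larger in the upper groups of the score order. In the first 24 genes by score the RPF libraries of 12 hr lay above those of 0 hr in 21, in the next 24 in 19, and in the 24 after those and in the last 24 in 11 each. At 6 hr the numbers were 19, 17, 14 and 11. Of all ranked genes 15.6% at 12 hr and 14.5% at 6 hr had such libraries. The median log2 ratio of RPFs at 12 against 0 hr was 2.20, 1.60, 0.52 and 0.48 over the 4 groups, beside 2.34, 1.84, 1.55 and 1.42 in RNA. Score and RNA ratios are the values that chose and ordered the genes, so the RNA medians are a description and nothing is read from the distance between them and the RPF medians. The groups also differed in depth, with a median of 61.6, 109, 39.8 and 46.9 RPF counts per gene and library.

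The test of RPFs was fitted over all 20414 genes that passed a filter on low counts, with libraries scaled to equal counts of actin (Zm00001d013873), as in the methods of the study. It was edgeR's quasi-likelihood test on the 6 ribo-seq libraries, with p-values adjusted over all genes tested. The filter kept 90 of the 96 genes, and 24 of these 90 had a 0 hr library under its limit of 2.20 CPM, so that they needed a later library to pass and counts over the tested genes are no support for a rise. At 12 against 0 hr, 19 of the 90 genes rose in RPFs at an adjusted p under 0.05, where 28 of all 20414 genes did (0.137%), and none of the 90 fell, where 0.142% of all genes did. At 6 against 0 hr 7 rose (0.0637% of all genes) and none fell (0.206% of all genes). Both comparisons share the 0 hr libraries. In each of the 19 both 12 hr libraries lay above both 0 hr libraries. Among the 66 genes with both 0 hr libraries at or above the limit, 15 rose at 12 hr (0.119% of the 17712 such genes) and 5 at 6 hr (0.0508%), and between 12 and 6 hr 0 did (0.0395%).

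A call needed a large change. The smallest log2 change among the 19 was 1.67, with standard errors of 0.415 to 0.953, and among the 7 it was 1.93. A further 41 tested genes had both 12 hr libraries above both 0 hr libraries without passing; their fitted log2 changes had a median of 1.43 (range 0.20 to 2.94). At an unadjusted p under 0.05, 48 of the 90 genes were higher and none lower at 12 against 0 hr (1.45% and 1.23% of all genes), and 33 were higher and none lower at 6 against 0 hr (0.524% and 3.11%). The p-values of this fit equal normal tail areas to within 5.17e-06, so the spread between the duplicates of a single gene had almost no weight in them. The count of 19 at 12 hr (28 over all genes) became 34 and 8 (176 and 10 over all genes) when 0 hr replicate 1 or 2 was left out, 7 and 8 (10 and 11) when 6 hr replicate 1 or 2 was, and 4 and 6 (7 and 8) when 12 hr replicate 1 or 2 was. The count of 7 at 6 hr (13 over all genes) became 13, 4, 3, 1, 2 and 3 in the same order (16, 11, 4, 3, 4 and 6 over all genes).

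No gene of the 90 passed the test between 12 and 6 hr in edgeR's quasi-likelihood fit, in either direction. The background was 9 of all genes higher (0.0441%) and 1 lower (0.0049%). At an unadjusted p under 0.05, 3 of the 90 were higher (1.94% of all genes) and 0 lower (0.127%), and DESeq2 and limma voom also called 0. The gene nearest to a call had a score of 2.35 and RPF counts of 10 and 31 at 0 hr, 9 and 35 at 6 hr, then 127 and 106 at 12 hr. At 12 hr these were 41.7 and 8.64 CPM, both above all other libraries but far from each other, and at 6 hr the gene stood at its 0 hr level. The fitted log2 change was 2.53 for 12 against 6 hr (standard error 0.64, adjusted p = 0.0995 from edgeR), 2.60 for 12 against 0 hr (0.64, 0.0240) and 0.07 for 6 against 0 hr (0.66, 0.999). It was chosen for mention after its values were seen.

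**Figure D2:**
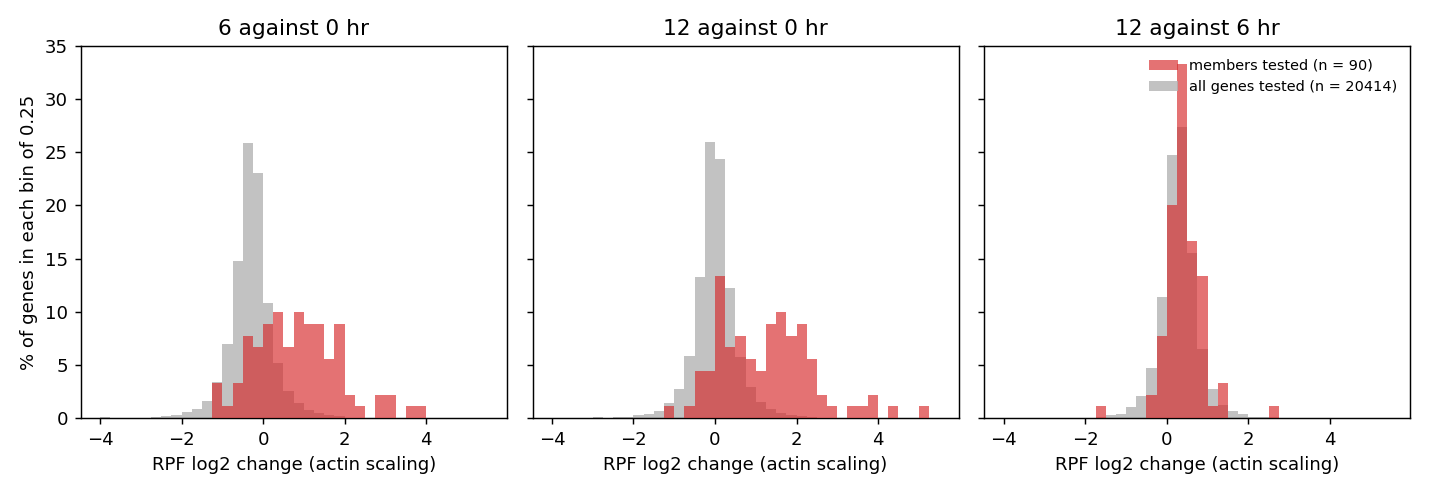
Share of genes (%) in bins of 0.25 of the fitted RPF log2 change with actin scaling, for the 90 tested genes of the list (red) and all 20414 genes tested (grey), at 6 against 0 hr, 12 against 0 hr and 12 against 6 hr. The red bars lie to the right of the grey ones in the comparisons with 0 hr (medians 0.84 against -0.29, and 1.30 against -0.01) and close to them at 12 against 6 hr (0.38 against 0.29).

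The fitted changes are given for the 90 tested genes and then without those that needed a later library to pass. The median fitted log2 change of the 90 genes was 1.30 at 12 against 0 hr, with quartiles of 0.37 and 1.92, and the median over all 20414 genes was -0.01. At 6 against 0 hr it was 0.84, with quartiles of 0.07 and 1.47. Scaling to actin put the median of all genes at -0.29 there, so that relative to it the list lay at 1.14. At 12 against 6 hr the list lay at 0.09 over the median of all genes (0.38 against 0.29). Above the median of all genes were 80 of the 90 genes at 12 against 0 hr, 76 at 6 against 0 hr and 57 at 12 against 6 hr. In the 66 genes with both 0 hr libraries at or above the limit of the filter, the median was 1.19 at 12 against 0 hr and 0.69 at 6 against 0 hr, beside -0.03 and -0.31 over the 17712 such genes. Of these 66, 58 were above 0 at 12 hr and 52 at 6 hr, beside 46.4% and 17.4% of the 17712. Ratios of counts per actin count were also taken over all 96 genes by replicate number, which does not pair the samples. Their median at 12 against 0 hr was 0.89 in replicate 1 and 1.64 in replicate 2, and at 6 against 0 hr 0.54 and 1.13. Actin itself stood at 29.5 and 52.4 CPM at 0 hr, 48.3 and 44.8 at 6 hr, then 40.4 and 36.1 at 12 hr. Its part in the difference between replicates was not tested.

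The clearest case was Zm00001d021120, with the second-highest score (16.0). Its mRNA stood at 26.0 and 24.9 CPM at 0 hr, 546 and 481 at 6 hr, then 606 and 417 at 12 hr. Its RPFs stood at 47.5 and 43.0 CPM at 0 hr, 584 and 828 at 6 hr, then 810 and 626 at 12 hr. All 4 later libraries were far above both 0 hr ones in either kind of library, and those of 6 and 12 hr overlapped. In RNA the order of later over 0 hr libraries was fixed by the choice of the gene. RPFs rose by a log2 change of 3.96 at 12 against 0 hr (standard error 0.49, adjusted p = 3.32e-12 from edgeR) and by 3.67 at 6 against 0 hr (0.48, 1.30e-10). Between 12 and 6 hr the value was 0.29 (adjusted p = 1.00). It passed the test at both times under all 16 alternative settings. RPF per RNA CPM was 1.83 and 1.73 in the lysates of 0 hr, 1.07 and 1.72 at 6 hr, then 1.34 and 1.50 at 12 hr.

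Zm00001d031173 (score 7.52) was scarce at 0 hr. It had 0.743 and 1.42 CPM of mRNA at 0 hr, 19.5 and 14.2 at 6 hr, then 20.8 and 10.7 at 12 hr. Its RPF counts were 4 and 14 at 0 hr, 10 and 182 at 6 hr, then 55 and 269 at 12 hr, that is 1.38 and 2.49, 6.30 and 24.3, and 18.2 and 21.9 CPM. The later libraries again lay above both 0 hr ones, but the 6 hr duplicates were far apart. The fitted log2 change in RPFs was 3.56 at 12 against 0 hr (standard error 0.68, adjusted p = 0.000231 from edgeR). At 6 against 0 hr it was 2.97 (0.68, 0.00745). With 4 counts, 0 hr replicate 1 lay under the limit of the filter, so the gene needed a later library to be tested. These calls are therefore no support for a rise. The 6 hr call held under only 4 of 14 alternatives. It was lost with TMM scaling (0.160), total counts (0.153), the 2 time points alone (0.141), limma voom (0.266) and the replicate number as a block (0.0924), and with any library but 6 hr replicate 1 left out (adjusted p of 0.0609 to 1.00, with a change of 1.48 without 6 hr replicate 2). The 12 hr call held under 11 of 15 and was lost with TMM scaling (0.0648), with total counts (0.0613) and when 0 hr replicate 2 (0.0795) or 12 hr replicate 2 (0.107) was left out.

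Other genes at the top of the ranking mostly had higher RPFs as well. The gene with no RNA counts at 0 hr had 1 and 2 RPF counts at 0 hr, 7 and 47 at 6 hr, then 36 and 121 at 12 hr, and its RPFs passed edgeR's test at 12 hr (adjusted p = 0.000125) and at 6 hr (0.0319). Both of its 0 hr libraries lay under the limit of the filter, so it was tested only because its later libraries were high, and these calls are no support for a rise. The gene with a score of 7.07 had RPFs of 10.2 and 7.29 CPM at 0 hr, 80.7 and 86.5 at 6 hr, then 101 and 84.0 at 12 hr. They rose by a log2 change of 3.40 at 12 against 0 hr (standard error 0.54, adjusted p = 1.13e-06 from edgeR). Here the duplicates lay close together, and the groups of 6 and 12 hr were clear of 0 hr. The gene with a score of 11.5 had RPFs of 5.35 and 3.34 CPM at 0 hr, 25.5 and 18.4 at 6 hr, then 26.7 and 15.0 at 12 hr, with a log2 change of 2.26 at 12 against 0 hr that missed the threshold (standard error 0.62, adjusted p = 0.0795 from edgeR). The gene with a score of 3.43 differed from these, with 19 and 12 RPF counts at 0 hr, 6 and 12 at 6 hr, then 6 and 21 at 12 hr. Its log2 change was -1.19 at 12 against 0 hr (standard error 0.89, adjusted p = 1.00 from edgeR), and its counts were low in every library.

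**Figure D3:**
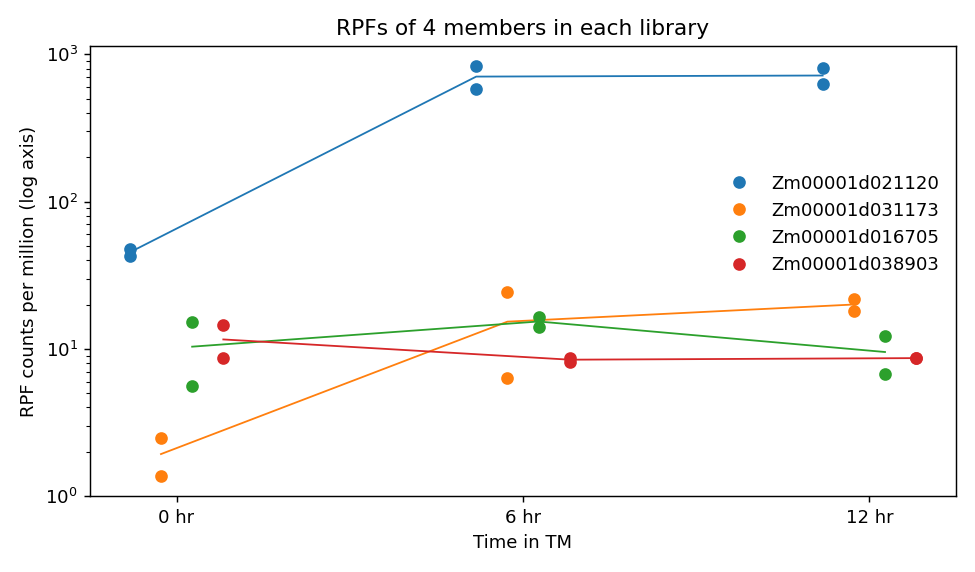
RPF CPM (log axis) of 4 genes in each of the 6 ribo-seq libraries against time in TM; points are libraries and lines join the means of the 2 libraries. Zm00001d021120 and Zm00001d031173 lie above their 0 hr values at 6 and 12 hr, while the values of Zm00001d016705 and Zm00001d038903 overlap with those of 0 hr at both times.

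A rise in RPFs was not seen for every mRNA that was higher. Of the genes with a mean of at least 50 RPF counts, Zm00001d038903 had the lowest RPF change at 12 against 0 hr. Its mRNA was at 4.21 and 4.26 CPM at 0 hr (8 and 22 counts), 7.76 and 10.4 at 6 hr, then 9.42 and 8.18 at 12 hr. Its RPFs lay at 14.5 and 8.66 CPM at 0 hr, 8.70 and 8.19 at 6 hr, then 8.67 and 8.64 at 12 hr, so that only the first 0 hr library stood apart, on the high side. The log2 change was -0.49 at 12 against 0 hr (standard error 0.61, adjusted p = 1.00 from edgeR) and -0.82 at 6 against 0 hr (0.63, 0.999). Its score of 1.82 was close to the limit of the list.

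Zm00001d016705, with the next lowest RPF change at 12 hr, had a higher score of 2.62. Its mRNA was at 4.71 and 5.58 CPM at 0 hr (9 and 29 counts), 35.2 and 38.6 at 6 hr, then 39.6 and 14.6 at 12 hr. Its RPFs lay at 15.1 and 5.57 CPM at 0 hr, 14.1 and 16.6 at 6 hr, then 12.3 and 6.77 at 12 hr. The RNA libraries were separated, which the choice of the gene required, while the RPF libraries overlapped at both times. The log2 change in RPFs was -0.29 at 12 against 0 hr (standard error 0.60, adjusted p = 1.00 from edgeR) and 0.18 at 6 against 0 hr (0.60, 0.999). RPF per RNA CPM was 3.22 and 0.998 at 0 hr, 0.400 and 0.430 at 6 hr, then 0.309 and 0.464 at 12 hr. Without 0 hr replicate 1, in which its RPFs were high, the change at 12 hr was 1.17 (adjusted p = 0.370).

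The 27 genes whose RPFs were separated at neither time had a median RNA ratio close to that of the 54 separated at both, but the largest RNA ratios were among the 54. Their median log2 RNA ratio at 12 against 0 hr was 1.70 (range 0.99 to 2.93), beside 1.84 in the 54 (range 1.02 to 7.69). Their median score was 2.04, beside 2.35. They had fewer RPF counts, with a median of 28 per library and gene against 138, and 10 of the 27 reached 50 against 40 of the 54. The median ratio of RPFs to RNA at 0 hr was 2.41 and 1.59 in the lysates of the 27 and 1.28 and 1.19 in those of the 54. At 12 hr it was 0.573 and 0.516 in the 27 and 0.934 and 1.14 in the 54. The split itself uses the 0 hr RPFs, and a gene with high RPFs at 0 hr falls among the 27 and has a high ratio there, so the difference is in part fixed by the split.

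In every library, 4 genes held most of the counts of the list. The 96 genes together took 0.231 and 0.269% of all RNAseq counts at 0 hr, 0.916 and 0.841% at 6 hr, then 1.07 and 0.726% at 12 hr. Of the ribo-seq counts they took 0.368 and 0.358% at 0 hr, 1.11 and 1.06% at 6 hr, then 1.33 and 1.03% at 12 hr. All later shares were above those of 0 hr, which in RNAseq, unlike in ribo-seq, was fixed by the choice of the genes. The shares of 6 and 12 hr overlapped. The 4 genes with the most RPFs held 0.225 and 0.213% of ribo-seq counts at 0 hr, 0.742 and 0.713% at 6 hr, then 0.876 and 0.673% at 12 hr. The other 92 genes held 0.144 and 0.145%, 0.364 and 0.351%, and 0.458 and 0.359%, so they showed the same order of time points.

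The most abundant gene, with a score of 3.24, had RPFs of 576 and 507 CPM at 0 hr, 2955 and 2363 at 6 hr, then 2956 and 2135 at 12 hr. They rose by a log2 change of 2.18 at 12 against 0 hr (standard error 0.42, adjusted p = 0.000231 from edgeR) and 1.97 at 6 against 0 hr (0.41, 0.00177). The next most abundant, with a score of 1.98, had 890 and 951 CPM at 0 hr, 1920 and 2342 at 6 hr, then 2386 and 2072 at 12 hr. The one with a score of 2.37 had 734 and 627 CPM at 0 hr, 1967 and 1600 at 6 hr, then 2609 and 1896 at 12 hr. In each of these genes the later libraries were clear of both 0 hr libraries, and those of 6 and 12 hr overlapped. Zm00001d021120 was the 4th.

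**Figure D4:**
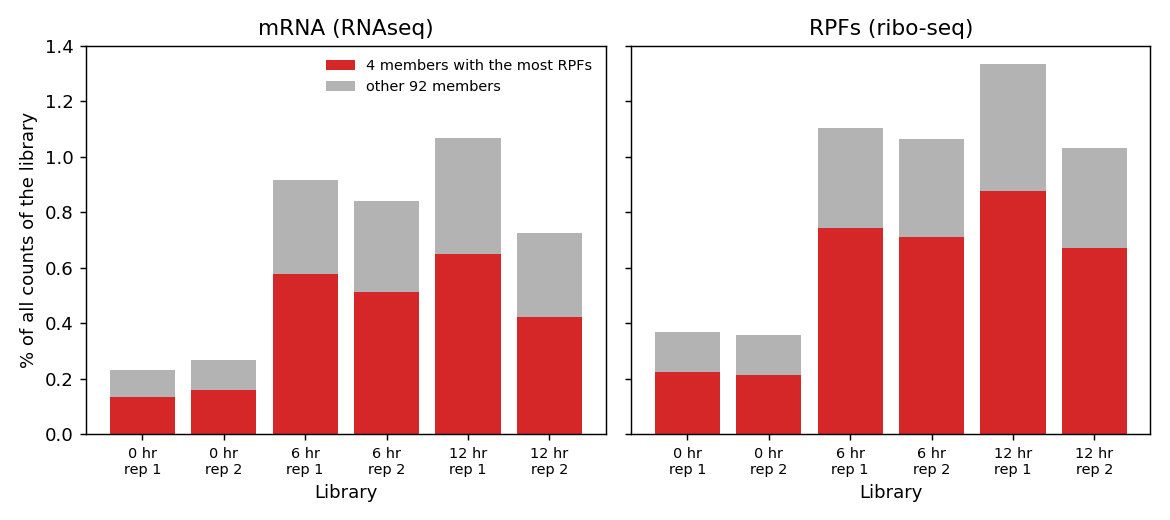
Share (%) of all counts of each library taken by the 96 genes, in RNAseq (left) and ribo-seq (right), with the 4 genes with the most RPFs in red and the other 92 in grey, in order of time in TM. Every 6 and 12 hr bar is higher than both 0 hr bars of its panel, for both classes of gene. In the RNAseq panel this order was fixed by the choice of the genes.

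RPFs per RNA, the ratio behind translation efficiency, are given as a description only, because the RNA values that chose the genes enter it with a minus sign. The median over the 96 genes was 1.33 and 1.20 in the lysates of 0 hr, 0.836 and 0.681 at 6 hr, then 0.777 and 0.770 at 12 hr. Over the 17852 genes the medians of the 6 lysates lay between 0.874 and 0.934. The list thus lay above the bulk of genes at 0 hr and below it later: 63 and 63 of the 96 genes exceeded the median of all genes in the 0 hr lysates, 41 and 38 at 6 hr, then 39 and 43 at 12 hr. The median log2 change was -0.58 at 6 against 0 hr and -0.68 at 12 against 0 hr, beside -0.05 and -0.01 over all genes. It was below 0 in 82 genes at 6 hr and 73 at 12 hr, where 55.0% and 51.3% of all genes were. From 6 to 12 hr it was 0.05, beside 0.04 over all genes.

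**Figure D5:**
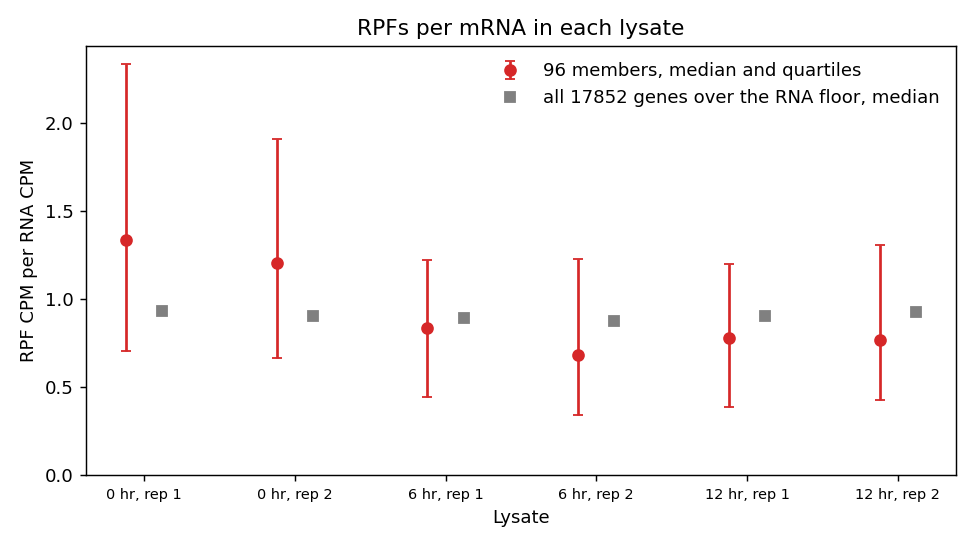
RPF CPM per RNA CPM in each of the 6 lysates, as the median with quartiles over the 96 genes (red) and the median over all 17852 ranked genes (grey), in order of time in TM. The red medians are above the grey ones at 0 hr (1.33 and 1.20) and below them at 6 and 12 hr, while the grey ones stay between 0.874 and 0.934.

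The ratio was also taken by the depth of 0 hr RNA. In the 21 genes with a mean of at least 50 RNA counts there, the median log2 change of the ratio was -0.17 at 6 against 0 hr and -0.03 at 12 against 0 hr, beside -0.03 and 0.01 over the 11958 ranked genes with that depth. The change was below 0 in 15 of the 21 at 6 hr and 11 of the 21 at 12 hr, beside 53.9% and 49.3% of ranked genes with that depth. In the 42 genes with at least 20 counts the median change was -0.18 at 6 hr and -0.13 at 12 hr, beside -0.03 and -0.000589 over the 16794 such ranked genes. Below 0 were 33 and 24 of the 42, beside 53.9% and 50.1% of the 16794. A limit on 0 hr RNA counts is itself a limit on values that entered the score.

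The choice of genes depended on the lysates used. When the score was taken from the RNAseq libraries of replicate number 1 alone, 97 genes remained beside the known UPR genes, 21 of them among the 96. Read in the lysates of number 2, these 97 genes had a median log2 ratio in RNA of 0.31 at 6 against 0 hr and 0.36 at 12 against 0 hr, and in RPFs of 0.18 and 0.24, beside 0.01 and 0.04 for the RPFs of all ranked genes. Chosen in number 2 and read in number 1, 98 genes, 20 of them among the 96, had 0.28 and -0.01 in RNA and 0.24 and -0.01 in RPFs. The RPFs of all ranked genes there had -0.04 and -0.04. The genes that ranked high in the lysates of a single number thus had medians in the other lysates far below the 1.54 and 1.75 in RNA and the 1.09 and 1.20 in RPFs of the 96 genes. The median log2 change of their ratio of RPFs to RNA was -0.10 at 6 hr and 0.08 at 12 hr in the lysates of number 2, and -0.26 and -0.02 in those of number 1. Over all ranked genes it was -0.02 and 0.04 in number 2, and -0.08 and -0.06 in number 1. The list also depended on the settings of the rule. With a floor of 20 CPM 33 of the 96 genes were chosen again. With counts per 100 actin counts in place of CPM 27 were, but the floor of 5 then meant 5 per 100 actin counts. Actin stood at 22.1 to 43.0 CPM in RNAseq, so this floor was lower than 5 CPM. The part of the scale alone was not tested.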

How the data were processed

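Root lysates of 3 time points were measured by RNAseq and ribo-seq (12 libraries). Per the methods and the submitters' processing notes, the authors trimmed reads with cutadapt 1.16, removed noncoding RNA, mapped with Bowtie 1.2 to coding sequences of B73 RefGen_v4 and deposited unnormalized counts of reads per gene. A read with several equal matches counted once, so that close paralogs may share counts, and the sources mention no removal of PCR duplicates. There were 0 columns of values left unused. RNA values chose the genes and were not tested. RPF counts were tested with edgeR 4.0.16 (R 4.3.3; glmQLFit, glmQLFTest, filterByExpr, prior count 0.125, Benjamini-Hochberg adjustment, threshold 0.05) on actin-scaled libraries. A ribo-seq library held 80 to 445 actin counts, so that counting error in actin shifts all its genes together. Scripts were tested on simulated data, in which actin held its expected count in every library, so the error of actin scaling was not covered. DESeq2 1.42.0, limma 3.58.1 (voom), other scalings, filters and sets of libraries were alternatives, and those without a plan are named as added in the closing section. CPM used a pseudocount of 0.5.

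The genes and lists were chosen with earlier results of these data known. Identifiers were printed by rule: the 2 largest RPF rises past the test at 12 hr and the 2 lowest changes, each with a mean of at least 50 RPF counts. Of the 2 rises, that of Zm00001d031173 rested on a gene that needed a later library to pass the filter. Planned lists by product, marker genes and promoter motifs were not run because none of the identifiers could be paired with a name. Seedlings are younger in the labels than in the methods.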

Additional observations from a re-analysis of the deposited data

How the results depend on the processing

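At 12 against 0 hr the 19 calls (28 over all genes) became 6 (9) with the 2 time points alone and 32 (65) in DESeq2 with size factors of its own, and 4 to 34 (7 to 176) with 1 library left out. TMM called 22 (29 over all genes), of which 15 were shared. At 6 against 0 hr the 7 calls (13 over all genes) became 4 (8) with alpha tubulin 3 scaling and 4 (7) with a minimum of 10 counts in each library. They became 2 (4) with the 2 time points alone and 28 (54) in DESeq2 with size factors of its own. There TMM called 10 (13), of which 5 were shared. At 12 against 6 hr the count was 0 under all 16 alternatives. The replicate number does not pair the samples (correlation of deviations across genes 0.20 for 0 and 6 hr, -0.02 for 0 and 12 hr, 0.33 for 6 and 12 hr). With it as a replicate block the calls were 15 at 12 hr (20 over all genes), 3 at 6 hr (7) and 0 between 12 and 6 hr (2). The median log2 change at 12 against 6 hr (0.38, beside 0.29 over all genes) was 0.10 with TMM (0.01) and 0.10 with total counts (0.01). It was 0.55 with alpha tubulin 3 (0.47), 0.37 without the filter (0.29) and 0.35 with the stricter one (0.28). With 1 library left out it was 0.34 to 0.46 (0.16 to 0.38). The median at 12 against 0 hr (1.30) was 0.67 for the 200 highest scores. With 1 library left out it was 0.92 to 1.75, where the median of all genes was -0.38 to 0.49. The lowest of both came without 0 hr replicate 2 and the highest without 0 hr replicate 1. Lysates chosen and read apart gave 0.24 and -0.00893, but as CPM ratios of single libraries, scaled to totals. They cover 97 and 98 genes, of which 21 and 20 were among the 96. The median at 6 against 0 hr (0.84) was 1.38 for the 50 and 0.38 for the 200 highest scores. It was 0.58 to 1.22 with 1 library left out, where that of all genes was -0.67 to 0.20. Lysates apart gave 0.18 and 0.24, again as CPM ratios of those 97 and 98 genes. The share of genes with RPF libraries apart at 12 hr (64.6%, beside 15.6% of all genes) was 75.7% among the 70 genes with a mean of at least 5 RPF CPM (15.2%), and 71.9 to 79.2% with a 0 hr library left out (33.6 and 32.7%), which is a weaker criterion. With counts per actin count it was 59.4% at 12 hr (9.88%) and 53.1% at 6 hr (4.11%). The log2 change of Zm00001d016705 turned to 0.23 (limma voom) at 12 against 0 hr, where leaving out 1 library gave -1.11 to 1.17 (above 0 without 0 hr replicate 1 and, at 0.03, without 12 hr replicate 2), and to -0.61 (without 0 hr replicate 2) and -0.04 (without 6 hr replicate 2) at 6 against 0 hr. That of Zm00001d038903 turned to 0.46 at 12 hr and 0.13 at 6 hr without 0 hr replicate 1 (lowest -1.11 and -1.45), and that of Zm00001d031173 at 12 against 6 hr to -0.0361 without 6 hr replicate 1 (highest 2.07). The cause of these changes was not tested. The ratio of RPFs to RNA in separate lysates, the 0 hr libraries left out for shares, grouping by 0 hr RNA counts, the limit on both 0 hr libraries and actin in the rule were added after seeing the data. With CPM over Zm00001d identifiers alone 90 of the 96 genes were chosen again, and without a pseudocount 93. With 2 libraries per time point, none of the 90 tested genes of the list was called at 12 hr with a log2 change under 1.67 in the actin-scaled edgeR fit.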
